A study of Mus musculus with 16 samples.

Results

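The cathepsins are the proteases of the lysosome, the acidic compartment in which cells break down protein. The 8 genes described here are Ctsl, Ctsb, Ctsk, Ctsh, Ctsc, Ctsz, Ctsd and Ctsa. They were taken by symbol from a table of 16094 genes, as the lysosomal cathepsins other than Ctss, and all 8 were found and passed the expression filter.

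Most cathepsins are made as inactive precursors, carried to the lysosome by the mannose 6-phosphate route and activated there by cleavage. Macrophages hold large amounts of them, for the digestion of engulfed material and the processing of antigens for MHC class II. Tumour cells and stromal cells make them too, and secreted cathepsins can cut extracellular matrix and growth factor precursors. Cysteine cathepsins are held in check by the cystatins.

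The tumours were B16R2L mouse melanomas grown in mice, in 4 groups of 4. Tumours whose cells carried a short hairpin RNA (shMdk) that lowers Mdk, which encodes midkine, a growth factor that cells secrete, received either 10 mg/kg of RMP1-14, a monoclonal antibody that blocks PD1 (anti-PD1), or an IgG2a control antibody. Tumours with a hairpin that targets no gene (shCtrl) were given the same antibodies. Treatment began at 100 mm3 and was given 2 times per week over 2 weeks. Every tumour thus carried a hairpin and every mouse received an antibody. Each cell line carried 1 hairpin sequence, so loss of Mdk and other differences between the lines cannot be told apart. Strain, sex and age of the mice are not given in the sources used here. By its title, the series asks how tumours with less Mdk respond to PD1 therapy.

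The values are read counts per gene that the authors had divided by a size factor for each library, called normalised counts here. The libraries read the 3′ ends of transcripts, so a longer transcript does not give more reads. Recovered reads ran from 5686405 to 8886334 per tumour. Mdk had 96.5 to 323 normalised counts in the 8 shMdk tumours and 601 to 1161 in the 8 shCtrl tumours, with log2 fold changes of -2.17 ± 0.36 under anti-PD1 and -2.16 ± 0.36 under IgG2a (SE, limma adjusted p = 0.00166 and 0.00428). Melanocyte-lineage markers were abundant in every tumour (sum of 9 genes 127239 to 217341), the lineage of the labelled tumour. In 5 libraries, values went up with the GC content of a gene's 3′ end, so that GC-rich genes read higher: shMdk anti-PD1 tumour 1, shMdk IgG2a tumours 3 and 4, and shCtrl IgG2a tumours 1 and 2. In 2 others, Gm42418, a gene model over ribosomal RNA sequence, took more than 3% of reads: shMdk IgG2a tumour 1 and shCtrl anti-PD1 tumour 2. Results are given without these libraries where that changes a call or turns a direction. They are also given for some values that move by more than 1.5 times, but not for all of them.

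The promoter windows below belong to the members whose windows held the motif described here (Ctsd and Ctsa) and to the member with the lowest p between antibodies in shMdk tumours (Ctsl), which is 1 of 4 whose windows held none. They were chosen after these matches were seen, and Ctsc and Ctsz, without the motif, passed in no comparison by any tool either. Each runs from 250 bases before to 50 bases after a transcript start, 5′ to 3′ on the gene's strand, from RefSeq on build GRCm38.p6. Capitals mark TCACGTG on either strand, the core of the element through which TFEB, a master regulator of lysosomal genes, is known to act. Where the core occurs on both strands at once, the overlap TCACGTGA is in capitals and counted as 1 site.
Ctsl, chr13:64370471-64370770, minus strand: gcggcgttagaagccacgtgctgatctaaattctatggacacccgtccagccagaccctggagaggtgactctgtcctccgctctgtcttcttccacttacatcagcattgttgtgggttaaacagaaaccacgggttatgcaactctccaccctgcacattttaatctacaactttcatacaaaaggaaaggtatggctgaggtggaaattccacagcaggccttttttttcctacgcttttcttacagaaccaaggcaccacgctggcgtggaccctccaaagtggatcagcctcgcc
Ctsd, chr7:142387778-142388077, minus strand: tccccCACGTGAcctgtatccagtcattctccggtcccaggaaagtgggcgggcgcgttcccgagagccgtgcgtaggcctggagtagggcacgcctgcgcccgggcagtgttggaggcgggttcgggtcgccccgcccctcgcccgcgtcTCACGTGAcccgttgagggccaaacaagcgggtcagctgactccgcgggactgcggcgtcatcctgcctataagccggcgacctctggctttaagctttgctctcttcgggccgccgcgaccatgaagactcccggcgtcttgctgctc
Ctsa, chr2:164833523-164833822, plus strand: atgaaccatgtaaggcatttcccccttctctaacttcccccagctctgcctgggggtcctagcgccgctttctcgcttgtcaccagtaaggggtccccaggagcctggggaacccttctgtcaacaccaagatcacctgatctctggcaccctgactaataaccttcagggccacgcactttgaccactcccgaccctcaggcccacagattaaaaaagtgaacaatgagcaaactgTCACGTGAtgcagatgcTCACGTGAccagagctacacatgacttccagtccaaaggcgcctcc

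The table of RefSeq promoters held 7 windows for 6 of the 8 members, Ctsa having a pair of them. Ctsb and Ctsh are named only. The TFEB core was found at 2 sites in the Ctsd window, starting 245 and 99 bases before the transcript start. It was found at 2 sites in the Ctsa window shown, starting 13 bases before the start and at base 5 after it. The windows of Ctsl, Ctsc, Ctsk and Ctsz, and the other window of Ctsa, held none. The Ctsl window and the Ctsa window shown lie wholly inside the gene bounds given below, so their transcript starts are not the outermost ones. The other window of Ctsa spans the annotated start of the gene. Of 32851 windows of this length in the mouse table, 3.77% held the motif. A match in these letters is a description and not a bound site. GAGGAAG on either strand, the core read by the myeloid factor PU.1, was in the windows of Ctsk (2 sites) and Ctsc (2 sites), and in 13.6% of all windows.

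Ctsl, Ctsb, Ctsh and Ctsk were each higher in every shMdk tumour treated with anti-PD1 than in any of the other 12 tumours. Across all 14672 genes tested, 305 (2.08%) had that pattern. Between antibodies within the shMdk line, Ctsl passed the test over all genes, with 2.61-fold more under anti-PD1, and it had the lowest p of any gene. Under anti-PD1, Ctsl, Ctsb and Ctsh were higher in shMdk than in shCtrl tumours, by 2.19, 1.93 and 3.95 times on the scale of the fit. Ctsk, Ctsc, Ctsz, Ctsd and Ctsa passed in no comparison in the limma fit over all 16 tumours, Ctsd being the most abundant of the 8. Under IgG2a, 0 of the 8 passed between the lines, where 1.74% of all genes passed. At that share 0 of 8 is not a result about the members, and Ctsb and Ctsh had unadjusted limma p of 0.0133 and 0.00568. Ctss, which is not among the 8, passed in that comparison. In bulk tumours such as these, more cells of a type and more RNA per cell cannot be told apart.

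**Figure D1:**
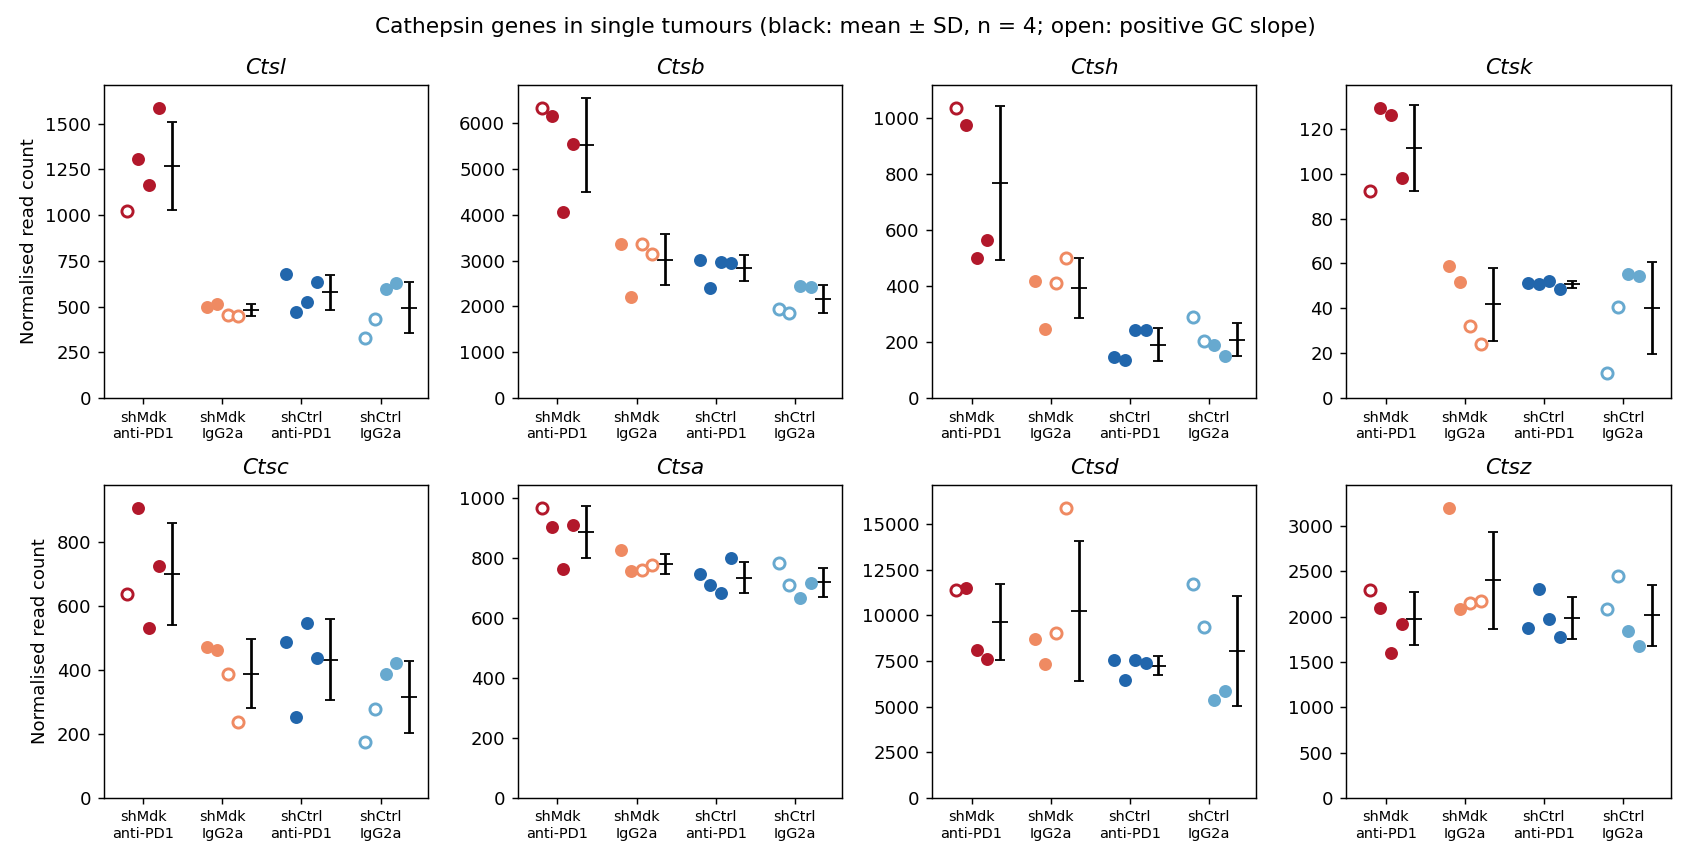
Normalised read counts of the 8 cathepsin genes in each tumour (y axis, linear from 0), by group (x axis, 4 tumours each). Points are tumours, black bars are mean ± SD, and open points are the 5 libraries in which GC-rich genes read higher. In Ctsl, Ctsb, Ctsh and Ctsk the 4 shMdk anti-PD1 tumours lie above the other 12, and in Ctsd, Ctsz, Ctsa and Ctsc they overlap with them.

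Ctsl (ENSMUSG00000021477.9, chromosome 13, 64359337 to 64370890, minus strand, GRCm38) encodes cathepsin L, a cysteine endopeptidase that, in mouse thymic epithelium, degrades the invariant chain of MHC class II. It had 1021, 1306, 1164 and 1585 normalised counts in shMdk anti-PD1 tumours and 498, 517, 452 and 449.9 in shMdk IgG2a tumours. It had 678, 471, 525 and 635 in shCtrl anti-PD1 tumours and 326, 431, 594 and 628 in shCtrl IgG2a tumours. The lowest shMdk anti-PD1 tumour lay well above the highest of the others, and the other 3 groups overlapped one another. In both IgG2a groups the libraries in which GC-rich genes read higher had the lowest Ctsl values. The last 300 bases of the Ctsl transcript were 37% G or C. Within shMdk tumours the mean was 1269 ± 241 under anti-PD1 and 479 ± 33.4 under IgG2a (SD, n = 4). The log2 fold change was 1.39 ± 0.19 (SE, limma adjusted p = 0.0152). Within shCtrl tumours it was 0.26 ± 0.19 (limma adjusted p = 0.798). Between lines it was 1.13 ± 0.19 under anti-PD1 (limma adjusted p = 0.00210) and -0.00039 ± 0.19 under IgG2a (limma adjusted p = 0.9999), where it was -0.27 ± 0.19 without the 5 libraries in which GC-rich genes read higher. Without them the antibody effect in shCtrl tumours was -0.10 ± 0.17.

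Ctsl was 1 of 5 genes (0.0341% of those tested) that passed between antibodies in shMdk tumours, of which 4 were higher and 1 (0.00682%) was lower under anti-PD1. All 5 are named for that reason, after their values were seen. The others were Sdc3, a heparan sulphate proteoglycan (1.38 ± 0.20, adjusted p = 0.0152), Mmp12, the macrophage elastase (1.99 ± 0.31, adjusted p = 0.0312), Slfn4, a Schlafen family gene (2.60 ± 0.44, adjusted p = 0.0481), and Mbnl3, an RNA-binding protein, which fell (-1.04 ± 0.18, adjusted p = 0.0481). For Ctsl the call was lost when shMdk IgG2a tumour 2, 3 or 4 or shMdk anti-PD1 tumour 2 or 4 was left out (limma adjusted p = 0.0535, 0.102, 0.0809, 0.0884 and 0.0810), with log2 fold changes of 1.27 to 1.49 over all 8 such fits. The number of genes called in these 8 fits ranged from 0 to 12.

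Whether the anti-PD1 effect on Ctsl differed between the lines was tested directly. The difference between the effects was 1.13 ± 0.27 on the log2 scale, with an unadjusted p of 0.000694, the 6th lowest of all genes. After adjustment over all genes it did not pass (limma adjusted p = 0.9998). In that test 0 genes passed in limma, edgeR or DESeq2, and 506 (3.45%) had an unadjusted p under 0.05, among them Ctsl and Ctsh.

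Ctsb (ENSMUSG00000021939.8, chromosome 14, 63122462 to 63145923, plus strand) encodes cathepsin B, which cuts within proteins and also removes dipeptides from their C-terminal ends. It had 6325, 6161, 4060.3 and 5547 normalised counts in shMdk anti-PD1 tumours and 3355, 2203, 3371 and 3149.6 in shMdk IgG2a tumours. It had 3017, 2406, 2971 and 2951 in shCtrl anti-PD1 tumours and 1932, 1862, 2443 and 2422 in shCtrl IgG2a tumours. The shMdk anti-PD1 tumours did not overlap with any other group, the shMdk IgG2a and shCtrl anti-PD1 tumours overlapped, and the shCtrl IgG2a group had the lowest mean. Between lines under anti-PD1, Ctsb was higher in shMdk tumours, with 5523 ± 1031 against 2837 ± 288 in shCtrl tumours (SD, n = 4). The log2 fold change was 0.95 ± 0.17 (limma adjusted p = 0.00280). Under IgG2a the line difference was 0.47 ± 0.17 (adjusted p = 0.273), and 0.16 ± 0.22 without the 5 libraries in which GC-rich genes read higher. The anti-PD1 effect was 0.87 ± 0.17 in shMdk tumours (adjusted p = 0.0837, the 14th lowest p of all genes) and 0.40 ± 0.17 in shCtrl tumours (adjusted p = 0.798). The first of these passed with a pseudocount of 5 (adjusted p = 0.0478), in DESeq2 (adjusted p = 0.000508) and without shMdk anti-PD1 tumour 3 (limma adjusted p = 0.0373). The second was 0.22 ± 0.19 without those 5 libraries.

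Ctsk (ENSMUSG00000028111.4, chromosome 3, 95499256 to 95509362, plus strand) encodes cathepsin K, the collagen-cutting protease of osteoclasts, which is also made by activated fibroblasts. It was the least abundant of the 8, with 10 to 149 reads per tumour. Its normalised counts were 92.3, 129, 126 and 98.2 in shMdk anti-PD1 tumours and 59.0, 51.8, 32.2 and 24.2 in shMdk IgG2a tumours. They were 51.5, 51.0, 52.1 and 48.5 in shCtrl anti-PD1 tumours and 11.3, 40.5, 55.2 and 54.5 in shCtrl IgG2a tumours. The 4 shMdk anti-PD1 tumours were the highest of all, and in both IgG2a groups the libraries in which GC-rich genes read higher were the lowest. Between lines under anti-PD1 the log2 fold change was 1.10 ± 0.40 (limma adjusted p = 0.127). It passed in DESeq2 (adjusted p = 0.0196), with the 2 groups compared alone in the fit (limma adjusted p = 0.00876), and without those 5 libraries (1.19 ± 0.19, limma adjusted p = 0.00544). Between antibodies it was 1.46 ± 0.40 in shMdk tumours (adjusted p = 0.201), where it passed in DESeq2 (adjusted p = 0.0109), and 0.55 ± 0.40 in shCtrl tumours (adjusted p = 0.798). Without those 5 libraries the antibody effect was 1.07 ± 0.22 in shMdk tumours and -0.11 ± 0.21 in shCtrl tumours. Under IgG2a the line difference was 0.19 ± 0.40 (adjusted p = 0.959).

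Ctsh (ENSMUSG00000032359.14, chromosome 9, 90054152 to 90076089, plus strand) encodes cathepsin H, which removes amino acids from the N-terminal end of proteins. It had 1036, 974, 501.7 and 564 normalised counts in shMdk anti-PD1 tumours and 418, 246, 412 and 500.4 in shMdk IgG2a tumours. It had 145, 135, 243 and 242 in shCtrl anti-PD1 tumours and 289, 204, 188 and 150.5 in shCtrl IgG2a tumours. Under anti-PD1 every shMdk tumour was above every shCtrl tumour, while under IgG2a shMdk tumour 2 fell within the shCtrl range. The lowest shMdk anti-PD1 tumour and the highest shMdk IgG2a tumour were nearly equal. Between lines under anti-PD1, Ctsh was higher in shMdk tumours, with 769 ± 275 against 191 ± 59.0 in shCtrl tumours (SD, n = 4). The log2 fold change was 1.98 ± 0.29 (limma adjusted p = 0.000912), the largest of any member in any comparison. Under IgG2a it was 0.91 ± 0.29 (adjusted p = 0.168). The anti-PD1 effect was 0.94 ± 0.29 in shMdk tumours (adjusted p = 0.236) and -0.13 ± 0.29 in shCtrl tumours (adjusted p = 0.914). The effects of anti-PD1 differed by 1.07 ± 0.41 between the lines (unadjusted p = 0.0181, limma adjusted p = 0.9998).

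Ctsc (ENSMUSG00000030560.17, chromosome 7, 88278085 to 88310888, plus strand) encodes cathepsin C, the dipeptidyl peptidase that activates granzymes and the serine proteases of neutrophils. It had 636, 907, 531 and 725 normalised counts in shMdk anti-PD1 tumours and 472, 461, 386 and 235 in shMdk IgG2a tumours. It had 487, 254, 548 and 436 in shCtrl anti-PD1 tumours and 176, 277, 386 and 423 in shCtrl IgG2a tumours. The shMdk anti-PD1 tumours were above all shMdk IgG2a tumours, and the lowest of them lay below the highest shCtrl anti-PD1 tumour. In both IgG2a groups the libraries in which GC-rich genes read higher had the lowest Ctsc values. Log2 fold changes were 0.73 ± 0.29 between lines under anti-PD1 and 0.33 ± 0.29 under IgG2a. They were 0.87 ± 0.29 for anti-PD1 in shMdk tumours and 0.47 ± 0.29 in shCtrl tumours, and none of the 4 passed (limma adjusted p = 0.190, 0.858, 0.269 and 0.798). The line difference under IgG2a was 0.21 ± 0.31 and the antibody effect in shCtrl tumours 0.04 ± 0.27 without the 5 libraries in which GC-rich genes read higher.

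Ctsz (ENSMUSG00000016256.10, chromosome 2, 174427493 to 174439039, minus strand) encodes cathepsin Z, a carboxypeptidase that removes single residues. Its normalised counts were 2297, 2101, 1598 and 1921 in shMdk anti-PD1 tumours and 3202, 2081, 2150 and 2175 in shMdk IgG2a tumours. They were 1879.7, 2307, 1970.1 and 1774 in shCtrl anti-PD1 tumours and 2090.3, 2448, 1845 and 1676 in shCtrl IgG2a tumours. All 4 groups overlapped, and 1 shMdk IgG2a tumour stood above the rest. The log2 fold changes lay between -0.27 ± 0.16 (anti-PD1 in shMdk tumours, limma adjusted p = 0.491) and 0.24 ± 0.16 (between lines under IgG2a, adjusted p = 0.751). Without the 5 libraries in which GC-rich genes read higher, these were -0.47 ± 0.19 and 0.55 ± 0.21, which did not pass (adjusted p = 0.393 and 0.262). Without the 2 libraries high in Gm42418 they were -0.12 ± 0.15 and 0.10 ± 0.15.

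Ctsd (ENSMUSG00000007891.16, chromosome 7, 142375911 to 142388038, minus strand) encodes cathepsin D, the main aspartic protease of the lysosome. It was the most abundant member, with 11403, 11485, 8084 and 7613 normalised counts in shMdk anti-PD1 tumours and 8707, 7349.7, 9005 and 15888 in shMdk IgG2a tumours. It had 7528, 6455, 7578 and 7382 in shCtrl anti-PD1 tumours and 11693, 9354, 5369 and 5825 in shCtrl IgG2a tumours. Under anti-PD1 the lowest shMdk tumour lay just above the highest shCtrl tumour. In the IgG2a groups the high values were those of the libraries in which GC-rich genes read higher, at 9005 and 15888 in shMdk and 11693 and 9354 in shCtrl tumours. The last 300 bases of its transcript were 56.7% G or C, at the 96.0th percentile of genes. Its log2 fold changes were 0.39 ± 0.26 (anti-PD1) and 0.35 ± 0.26 (IgG2a) between lines, and -0.05 ± 0.26 (shMdk) and -0.08 ± 0.26 (shCtrl) between antibodies, with limma adjusted p of 0.476, 0.781, 0.948 and 0.943. With 1 tumour left out, the line difference under IgG2a was 0.12 (without shMdk tumour 4) to 0.56 (without shCtrl tumour 1). Without those 5 libraries the antibody effect was 0.16 ± 0.18 in shMdk tumours and 0.37 ± 0.17 in shCtrl tumours.

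Ctsa (ENSMUSG00000017760.16, chromosome 2, 164832873 to 164841032, plus strand) encodes cathepsin A, a serine carboxypeptidase that also shields the lysosomal enzymes beta-galactosidase and neuraminidase 1. It varied least, with a highest tumour only 1.45 times the lowest. Its normalised counts were 968, 905, 764 and 912 in shMdk anti-PD1 tumours and 828, 758, 760.3 and 776 in shMdk IgG2a tumours. They were 747, 709, 682 and 801 in shCtrl anti-PD1 tumours and 785, 711, 667 and 716 in shCtrl IgG2a tumours. Under anti-PD1, 3 of the 4 shMdk tumours were above every shCtrl tumour. The log2 fold change was 0.27 ± 0.11 (limma adjusted p = 0.195), and the other 3 were 0.03 to 0.18. Without the libraries in which GC-rich genes read higher, the line difference under IgG2a was 0.20 ± 0.15, in place of 0.12 ± 0.11, and the antibody effect in shMdk tumours 0.11 ± 0.13, in place of 0.18 ± 0.11. The genes of its partner enzymes were not called either: Glb1 had 0.08 ± 0.18 and Neu1 0.05 ± 0.15 between lines under anti-PD1.

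**Figure D2:**
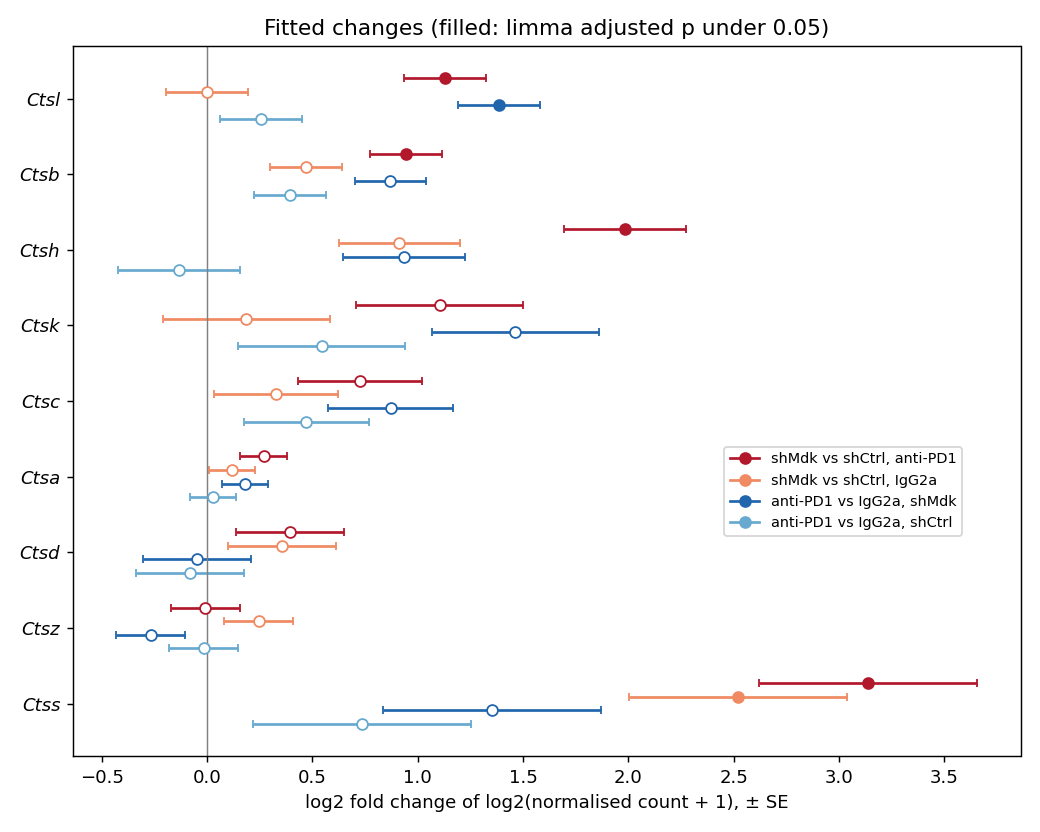
Log2 fold changes with standard errors (x axis) of the 8 members and Ctss (y axis) in 4 comparisons, from limma on log2(normalised count + 1). Filled points passed at an adjusted p under 0.05. Ctsh, Ctsl and Ctsb are filled for shMdk against shCtrl under anti-PD1, Ctsl for anti-PD1 against IgG2a in shMdk tumours, and Ctss for both line comparisons.

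By comparison, 3 of 8 members passed between lines under anti-PD1, all higher in shMdk tumours, where 5.93% of all genes passed, 4.93% as higher and 0.995% as lower. An unadjusted p under 0.05 was found for 6 of 8, against 17.8% of all genes. In 5 of 8 the shMdk tumours were all above the shCtrl tumours, a pattern that 8.23% of genes had, while 5.2% had the reverse pattern and no member did. The median log2 fold change was 0.84 over the members and -0.02 over all genes. Under IgG2a, 0 of 8 passed in limma (1.74% of all genes passed, 1.63% as higher), 2 had an unadjusted p under 0.05 (9.69% of all genes), and edgeR and DESeq2 called none of the 8 there. The shMdk tumours were all above the shCtrl tumours in 0 of 8, against 4.16% of genes. At these shares 0 of 8 is not a result about the members. The median was 0.29 over the members and -0.01 over all genes. Both comparisons have their own control tumours, but whether the line difference itself changed with the antibody is the test of the difference given above, and no member passed it.

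Between antibodies in shMdk tumours, 1 of 8 passed (0.0273% of all genes passed as higher), and DESeq2 called 3 of 8 where it called 244 genes in all. In 5 of 8 the anti-PD1 tumours were all above the IgG2a tumours, against 4.42% of genes, and below them in 0 of 8, against 4.1% of genes. An unadjusted p under 0.05 was found for 5 of 8, against 12.4% of all genes. The median was 0.87 over the members and 0.03 over all genes. In shCtrl tumours, 0 genes passed in limma and edgeR and 7 in DESeq2, none of them a member, while 556 genes (3.79%) had an unadjusted p under 0.05, among them Ctsb. No member had all anti-PD1 tumours above all IgG2a tumours there, a pattern that 0.981% of genes had. The median was 0.14 over the members and 0.01 over all genes. The line comparison under anti-PD1 and the antibody comparison in shMdk tumours share the shMdk anti-PD1 tumours.

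**Figure D3:**
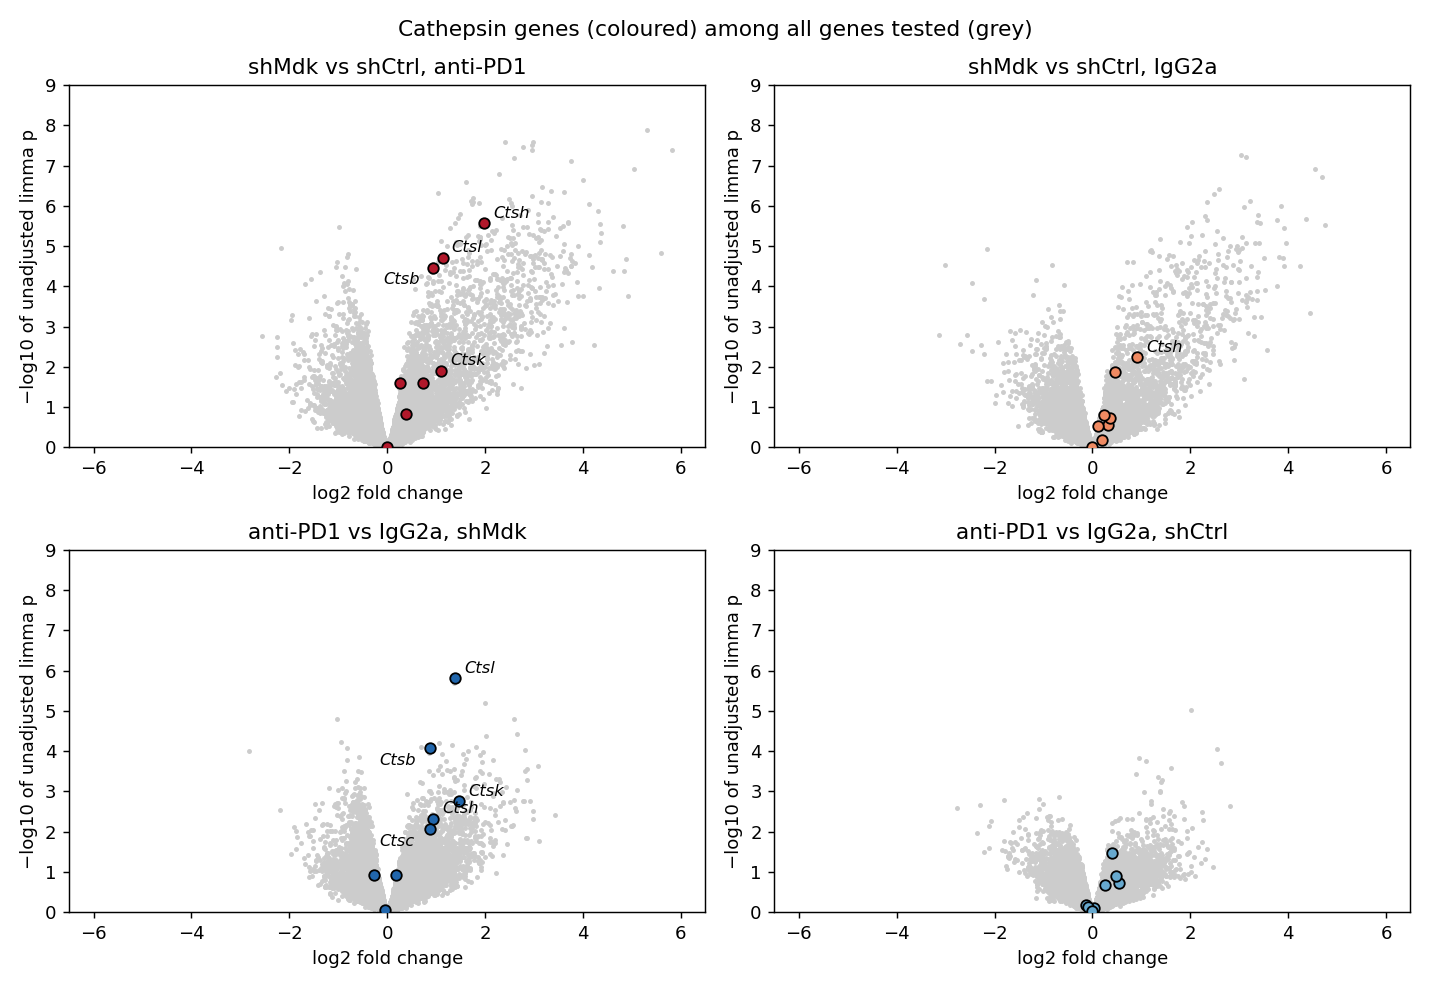
Log2 fold change (x axis) against −log10 of the unadjusted limma p (y axis) for all 14672 genes (grey) and the 8 cathepsins (coloured), in 1 panel per comparison. In the anti-PD1 against IgG2a panel of shMdk tumours Ctsl is the highest point. In the shCtrl panel Ctsb is the highest member, at rank 318 of the 14672 genes on the y axis. The other members lie lower there.

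The 8 members summed to 16830 to 23968 normalised counts in shMdk anti-PD1 tumours, 13666 to 23198 in shMdk IgG2a tumours, 12789 to 14570 in shCtrl anti-PD1 tumours and 11548 to 17302 in shCtrl IgG2a tumours. That was 0.223% to 0.324% of the total in shMdk anti-PD1 tumours and 0.150% to 0.206% in shCtrl IgG2a tumours. Ctsd was the largest part, with a mean share of 46.0% ± 3.91 in shMdk anti-PD1 tumours and 56.6% ± 8.22, 51.5% ± 0.696 and 56.0% ± 9.99 in shMdk IgG2a, shCtrl anti-PD1 and shCtrl IgG2a tumours (SD, n = 4 each). Ctsb held 24.1% to 29.2% in shMdk anti-PD1 tumours and at most 21.2% in any other tumour. Ctsh held 2.97% to 4.36% there and at most 2.49% in any other tumour. Ctsz shares were lower on average, with 8.76% to 10.1% in shMdk anti-PD1 tumours against 9.38% to 18.3% in shMdk IgG2a tumours. These shares are descriptions, and no test was run on them.

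**Figure D4:**
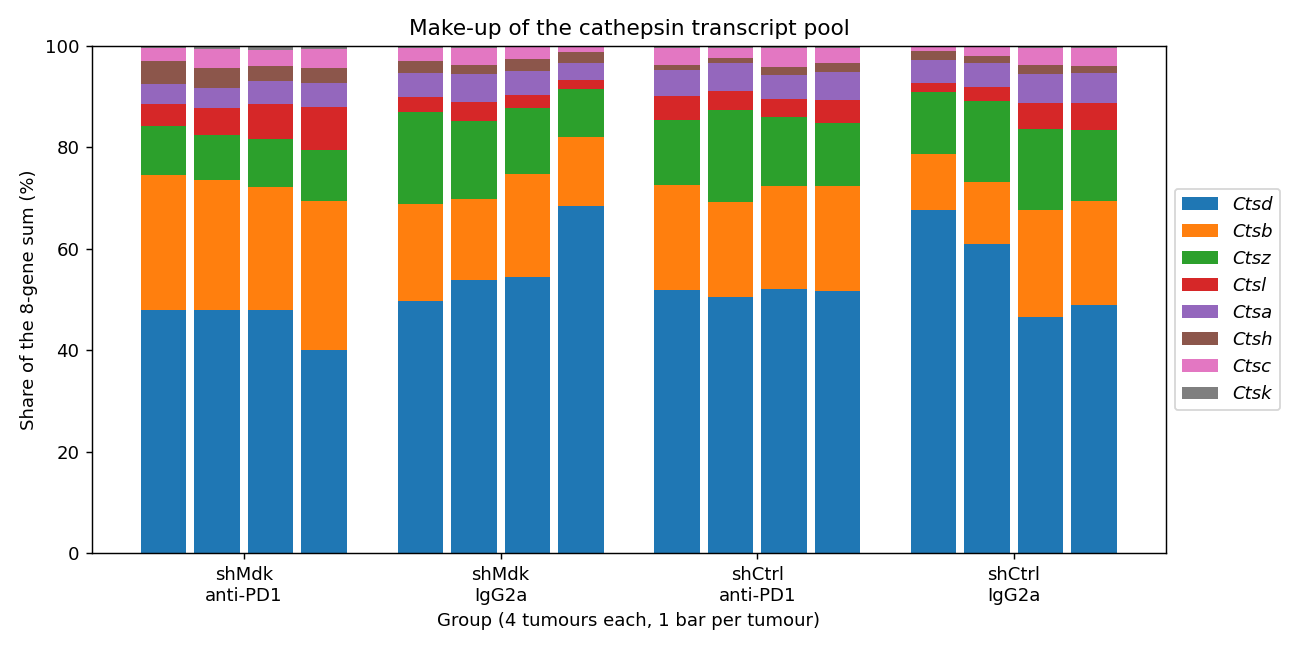
Share of each cathepsin in the sum of the 8 (y axis, percent) for each tumour (1 bar each, grouped on the x axis). Ctsb takes 24.1% to 29.2% in shMdk anti-PD1 tumours and at most 21.2% elsewhere, and Ctsd is the largest share in every tumour.

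Macrophage and monocyte markers were followed in the same comparisons. All 14 listed markers were measured, none was at 0 throughout a group, and their summed normalised counts were 4325 to 9713 in shMdk anti-PD1 tumours and 525 to 2129 in shCtrl anti-PD1 tumours, where 13 of 14 rose and 0 fell. Under IgG2a the sums were 2028 to 4793 in shMdk and 611 to 1512 in shCtrl tumours, and 6 of 14 rose and 0 fell. These counts are of markers that passed. All 14 had positive log2 fold changes in both line comparisons, with medians of 2.46 under anti-PD1 and 2.19 under IgG2a. Of all genes, 5.93% and 1.74% passed in these 2 comparisons. Between antibodies in shMdk tumours the sums were 4325 to 9713 under anti-PD1 and 2028 to 4793 under IgG2a. There 0 of 14 markers passed, where 0.0341% of all genes did. Their median log2 fold change was 0.96, against 0.03 over all genes. The markers' part in the cathepsin results was not tested.

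Other cell types that make cathepsins were followed by the same means. For fibroblasts, 3 of 7 tested markers rose between lines under anti-PD1 and 0 fell (Col3a1 2.74 ± 0.74, Col1a1 2.13 ± 0.53, Col1a2 2.08 ± 0.57), and their sum was 1547 to 13433 in shMdk and 467 to 2470 in shCtrl tumours. Under IgG2a 0 of 7 passed. Osteoclast markers, relevant to Ctsk, summed to 223 to 496 in shMdk anti-PD1 tumours, 90.9 to 228 in shMdk IgG2a tumours, 67.6 to 93.0 in shCtrl anti-PD1 tumours and 60.9 to 103 in shCtrl IgG2a tumours. Of 5 tested, 2 rose and 0 fell between lines under anti-PD1: Atp6v0d2, a proton pump subunit (2.86 ± 0.43, limma adjusted p = 0.000947), and Acp5, an acid phosphatase (1.54 ± 0.32, adjusted p = 0.00694), both of which macrophages also express. The osteoclast genes Calcr and Oscar were not tested. Melanocyte-lineage markers, those of the tumour cells, passed in 0 of 9 cases in every comparison, and their sum was 127239 to 169176 in shMdk anti-PD1 tumours and 154723 to 208641 in shCtrl anti-PD1 tumours. For T and NK cells 5 of 6 tested markers rose between lines under anti-PD1, for neutrophils 1 of 6, for dendritic cells 2 of 4, for B cells 0 of 2, for endothelium 3 of 7 and for keratinocytes 0 of 1, and none fell. Under IgG2a the counts were 2, 0, 1, 0, 0 and 0 of the same numbers. The T and NK cell sum was 142 to 333 in shMdk anti-PD1 tumours, 94.6 to 142 in shMdk IgG2a tumours, 0 to 35.9 in shCtrl anti-PD1 tumours and 2.85 to 40.5 in shCtrl IgG2a tumours. The endothelial sum was 1038 to 2458, 1133 to 2439, 820 to 1144 and 954 to 1811 in the same order of groups. The part of these cells in the cathepsin results was not tested.

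Among the cathepsins outside the 8, Ctss passed in both line comparisons. It encodes cathepsin S, the protease that removes the last pieces of invariant chain from MHC class II in antigen-presenting cells. It had 2378, 4734, 1677 and 1869.7 normalised counts in shMdk anti-PD1 tumours and 1078, 559, 1110.1 and 1233 in shMdk IgG2a tumours. It had 274, 75.1, 512 and 546 in shCtrl anti-PD1 tumours and 197, 308, 107 and 115 in shCtrl IgG2a tumours. Ctss was higher in shMdk than in shCtrl tumours under both antibodies. The log2 fold change was 3.14 ± 0.52 under anti-PD1 and 2.52 ± 0.52 under IgG2a (limma adjusted p = 0.00175 and 0.0146). Ctsw, a cathepsin of cytotoxic lymphocytes, was higher in shMdk than in shCtrl tumours under anti-PD1. It had 22.2 ± 11.6 against 2.74 ± 3.17 normalised counts (SD, n = 4), with a log2 fold change of 3.07 ± 0.71 (limma adjusted p = 0.0144). Ctsf and Ctso were low in all tumours, at most 91.6 normalised counts, and passed in no comparison. Ctse and Ctsg were not analysed here.

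Of the genes that hold cysteine cathepsins in check, 5 of 12 listed were tested. Cst7, a cystatin of leukocytes, was higher in shMdk than in shCtrl tumours under both antibodies. Under anti-PD1 it had 16.2 ± 3.52 against 1.61 ± 1.59 normalised counts (SD, n = 4), with a log2 fold change of 2.92 ± 0.50 (limma adjusted p = 0.00201). Under IgG2a it had 8.31 ± 1.04 against 0.231 ± 0.462, with 2.98 ± 0.50 (limma adjusted p = 0.00428). The other inhibitors tested did not pass between lines under anti-PD1. Cst3, cystatin C, had 0.66 ± 0.43 and Cstb, cystatin B, 0.30 ± 0.57 (adjusted p = 0.476 and 0.862). Ctla2a had 1.24 ± 0.39 and Cst6 0.08 ± 0.24 (limma adjusted p = 0.0726 and 0.916). Of 10 sorting and activation genes, 2 rose between lines under anti-PD1 and 0 under IgG2a. They were Psap, which encodes prosaposin, a lysosomal precursor protein (0.94 ± 0.18, adjusted p = 0.00448), and Lrp1, an endocytic receptor (1.04 ± 0.29, adjusted p = 0.0436). Lgmn, whose product legumain can cleave cathepsin precursors, had 0.81 ± 0.53 (adjusted p = 0.480).

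Other lysosomal protein genes were followed as a list, which leaves out lysosomal genes described above, such as Ctss and Psap. Both of those rose between lines under anti-PD1. Of the 26 genes in the list, 0 passed in limma in any of the 4 comparisons. Of all genes, 5.93% and 1.74% passed between lines under anti-PD1 and IgG2a. Between antibodies 0.0341% passed in shMdk and 0% in shCtrl tumours. At these shares 0 of 26 is not a result about the list. Its median log2 fold change was 0.13 between lines under anti-PD1 and 0.07 under IgG2a, against -0.02 and -0.01 over all genes. The largest under anti-PD1 was Gla, alpha-galactosidase A (0.60 ± 0.24, adjusted p = 0.188). Of 4 lysosome regulators tested, 0 passed, and Tfeb had 0.43 ± 0.25 under anti-PD1 (adjusted p = 0.411) and 0.63 ± 0.25 under IgG2a (adjusted p = 0.343). The class II genes with which cathepsins work rose in 8 of 9 tested between lines under each antibody, with medians of 3.12 under anti-PD1 and 3.39 under IgG2a. Among them Cd74, the invariant chain that cathepsins S and L digest, rose by 3.56 ± 0.70 and 3.92 ± 0.70. The exception was Ifi30, a lysosomal thiol reductase (0.15 ± 0.25 and -0.21 ± 0.25). Of the serine proteases that cathepsin C activates, 5 of 6 tested rose between lines under anti-PD1 and 2 of 6 under IgG2a, among them Gzmc (5.82 ± 0.63 and 4.36 ± 0.63), and the granzymes Gzmc to Gzmg are near-identical and can share reads.

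Likeness between genes was measured as the root-mean-square difference between their log2 profiles over the 16 tumours, each centred on its own mean, so that a small value means values that went up and down together and by like amounts. Among the members, Ctsl was closest to Ctsb (0.34 log2 units) and Ctsc (0.35), and it lay 0.74 from Ctsh. Ctsh was closer to the macrophage gene Cd68 (0.38) than to any other member (0.54 at the nearest, Ctsb). Another macrophage gene, Csf1r, lay farther from Ctsh (0.76) than Ctsb did. Ctsl lay 0.88 from Cd68 and 1.40 from Csf1r. Ctsa lay closest to Ctsz (0.24) and Ctsd to Ctsa (0.34). Of 12233 other genes tested, leaving out predicted gene models and pseudogenes named as such, those most like Ctsl were Sdc4 (0.26), Cblb (0.28) and Vmp1 (0.29). For Ctsb they were Dop1b, Runx1 and Psap (0.21 each), and for Ctsh Tmem106a (0.23), Irf7 (0.27) and Spi1 (0.30). For Ctsc they were Pros1 (0.20), St3gal4 (0.25) and Efhd2 (0.26), and for Ctsk Ostf1 (0.35), Pnp (0.36) and Tgif1 (0.37). Genes most like Ctsd included Spryd3 (0.13) and Sphk2 (0.14). Ctsa was most like Rab2a (0.11), Nudt13 (0.12) and Nbdy (0.13), and Ctsz most like Zfp318 (0.12), Specc1l (0.13) and Tln2 (0.14). Members that varied little have small differences from many genes for that reason, and these values are descriptions over tumours that share groups and libraries.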

How the data were processed

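RNA was measured by sequencing of transcript 3′ ends in 16 tumours, from 500 ng of RNA with integrity numbers of 5.8 to 9.2, per the labels' protocols. The authors deposited 1 normalised signal per gene and tumour. The submitters' processing notes name HTSeq, DESeq2, TopHat2 (2.0.10), FastQC (0.11.0), SAMtools (0.1.19) and Bowtie (1.0.0), and the mouse build mm10, which is GRCm38. Reads were recovered by dividing each deposited signal by its library's step size, and 100% of quotients lay within 0.001 of a whole number. Recovered totals were 5686405 to 8886334 reads per tumour.

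Every adjusted p is from limma 3.58.1 (R 4.3.3) unless another tool is named. It was run on log2(normalised count + 1), with group means, a variance trend and all 16 tumours (12 residual degrees of freedom), over 14672 genes with a mean of at least 5. Fold changes are on that scale, which understates changes of low genes. P-values were adjusted over all genes within a comparison by Benjamini and Hochberg, with a threshold of 0.05. The labels name no animals, so p-values measure the spread between these tumours. edgeR 4.0.16 on recovered reads called 866 and 251 genes between lines under anti-PD1 and IgG2a, 8 and 0 between antibodies in shMdk and shCtrl tumours, and 0 for the difference of effects. DESeq2 1.42.0, scaling, pseudocount, filter and left-out libraries were the other alternatives, and the procedure was tested on simulated data. Named genes were all members, the other cathepsins, Mdk, for each list and line comparison up to 4 passing genes or else the 2 with the largest change, and the 3 most similar genes per member. A gene and a motif that fall under these rules are not reported here. Genes named beyond that rule (Cst3, Cstb, Ctla2a, Cst6, Lgmn, Ifi30 and the 4 genes that passed with Ctsl) were chosen after their values were seen. Members and lists were chosen with earlier results of these data known. Replicate numbers follow accession order and pair nothing.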

Additional observations from a re-analysis of the deposited data

Results flagged for a closer look

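Of 32 sets of 4 tumours (8 members in 4 groups), 2 held a value far from the other 3 by Dixon's test at the 95% level, which chance gives in about 5% of groups. In tumour 1 of the shMdk IgG2a group Ctsz had 3202.26 normalised counts, while its other 3 tumours had 2081 to 2175. Ctsb had 2406.39 in shCtrl anti-PD1 tumour 2, against 2951 to 3017 in the other 3. These are the same 2 libraries in which Gm42418 took more than 3% of reads. Without them the Ctsz difference between lines under IgG2a was 0.10 ± 0.15 on the log2 scale, in place of 0.24 ± 0.16, and the Ctsb difference between lines under anti-PD1 was 0.87 ± 0.18, in place of 0.95 ± 0.17. The part of the libraries in these values was not tested.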

How the results depend on the processing

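The calls of Ctsl, Ctsb and Ctsh between lines under anti-PD1 held in all 10 other settings and all 8 fits that left out 1 tumour. Between antibodies in shMdk tumours the number of members called was 1, and it was 2 with a pseudocount of 5, 3 in DESeq2 and 0 to 2 with 1 tumour left out. Ctsl passed there in all 10 other settings (adjusted p 5.33e-08 to 0.0458) and in 3 of 8 fits with 1 tumour left out (adjusted p 0.0270 to 0.102). Genes called over all settings other than leaving out 1 tumour numbered 621 to 1310 (anti-PD1) and 74 to 449 (IgG2a) between lines, and 1 to 244 (shMdk) and 0 to 7 (shCtrl) between antibodies. With 1 tumour left out they numbered 443 to 858 (anti-PD1) and 136 to 271 (IgG2a) between lines, in place of 870 and 255. The count was lower by more than 1.5 times without shMdk anti-PD1 tumour 1 (443) or 2 (569), and without shMdk IgG2a tumour 1 (167) or 3 (136) or shCtrl IgG2a tumour 3 (160) or 4 (158), so the shares of all genes that passed move with these tumours.

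Log2 fold changes turned sign only where no call was made. With TMM scaling Ctsl between lines under IgG2a was 0.0035. Without the 2 libraries high in Gm42418, Ctsk between lines was -0.0047 under IgG2a, Ctsz between lines 0.067 under anti-PD1, Ctsh between antibodies 0.015 in shCtrl tumours, and the difference of effects for Ctsd -0.073. Without the 5 libraries in which GC-rich genes read higher, antibody effects in shCtrl tumours were -0.10 for Ctsl, 0.37 for Ctsd, 0.13 for Ctsh, -0.11 for Ctsk and 0.17 for Ctsz. For Ctsd they were 0.16 in shMdk tumours, with a difference of effects of -0.21. With 1 tumour left out, the line difference under IgG2a was -0.18 to 0.13 for Ctsl and -0.33 to 0.41 for Ctsk, and that of Ctsz under anti-PD1 -0.084 to 0.090. The antibody effect in shCtrl tumours was -0.013 to 0.072 for Ctsa, -0.25 to 0.12 for Ctsd, -0.27 to 0.039 for Ctsh and -0.10 to 0.083 for Ctsz. For Ctsd it was -0.18 to 0.19 in shMdk tumours, with a difference of effects of -0.17 to 0.27. Among uncalled values that kept their sign, the line difference under IgG2a was 0.12 to 0.56 for Ctsd, 0.074 to 0.55 for Ctsc and 0.098 to 0.34 for Ctsz, and the antibody effect in shCtrl tumours 0.072 to 0.39 for Ctsl, 0.22 to 0.71 for Ctsc and 0.034 to 0.77 for Ctsk. The cause was not tested. No paired analysis was possible because the labels give no replicate numbers that the groups share.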
